A study of Bos taurus with 8 samples.

Results

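Fibro-adipogenic progenitors (FAPs) of calves were compared with those of adult cattle in freshly digested muscle. FAPs are mesenchymal cells of the space between muscle fibres and are marked by the receptor PDGFRA. They lay down collagen and other matrix of the muscle interstitium, secrete factors that act on satellite cells (SCs, the muscle stem cells), and can turn into adipocytes or matrix-producing fibroblasts. The cells were those that carried the authors' annotation FAPs at Timepoint 1, the single-cell library made directly after digestion. They numbered 1231 of the 4395 annotated cells of that library and of the 36129 annotated cells in all, with 822 from 5 calves (donors 2, 4, 5, 7 and 10) and 409 from 5 adults (donors 1, 3, 6, 8 and 9).

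All 10 animals were Belgian Blue cattle, a double-muscled beef breed, and the semitendinosus of each was digested with collagenase and left unsorted. The animal table of the study gave age only as calf or adult, and each class mixed the sexes, with 1 male among the calves (donor 10) and 2 among the adults (donors 6 and 8). Cells of all donors were pooled into 1 Chromium 3′ library and assigned back to animals from their genotypes, so age class and library did not coincide. The same library gave 1166 vascular endothelial cells (VECs), 548 smooth muscle and mesenchymal cells (SMMCs) and 647 SCs, and a second library, made from unsorted adherent cells after 72 h of culture (passage 0), gave 5756 FAPs from 9 of the animals, without donor 3.

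The annotation held against its markers. Of 10 FAP marker genes (PDGFRA, DCN, LUM, COL1A1, COL1A2, COL3A1, DPT, GSN, CCDC80 and SERPINF1), all stood higher in FAPs than in each other annotated type of the muscle library except tenocytes, which exceeded FAPs for DCN, COL1A1, COL1A2, COL3A1, CCDC80 and SERPINF1. PDGFRA reached 778.5 unscaled CPM (CPM, a share of all UMIs of the cells summed, is called unscaled where no TMM factor was applied) in FAPs summed over donors. The tendon cell genes TNMD and SCX, and the satellite cell gene PAX7, lay at or near 0 in the FAPs of every donor, with at most 6.57 unscaled CPM for TNMD, none for SCX and at most 0.881 for PAX7. Other genes on the same marker lists were present: the 9 satellite cell markers summed to 376 to 1838 unscaled CPM in the FAPs of the donors, and the 8 tenocyte markers to 386 to 1080. Genes of muscle fibres were present in all donors, as described with the last of the gene lists.

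FAPs made up 21.5, 13.9, 46.4, 24.2 and 28.8% of the annotated cells in calf donors 2, 4, 5, 7 and 10. In adult donors 1, 3, 6, 8 and 9 they made up 24.5, 22.6, 35.9, 30.0 and 24.6%. The means of 27.0% ± 12.1 (SD, n = 5) and 27.5% ± 5.45 (SD, n = 5) did not differ beyond the spread between animals (exact 2-sided permutation test over donors, p = 0.913, adjusted p = 1 over 4 measures per donor). Calf donor 5 alone supplied 350 of the FAPs, against 52 to 163 from each other donor.

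The depth per FAP did not differ beyond the spread between animals. The median FAP held 6166 ± 965 UMIs (SD, n = 5) in calves and 5643 ± 787 in adults (exact permutation p = 0.397, adjusted p = 1), and mitochondrial genes took 2.61% ± 0.272 and 2.71% ± 0.419 of the UMIs (exact permutation p = 0.651, adjusted p = 1). It held 2118 ± 224 detected genes in calves and 2117 ± 121 in adults (exact permutation p = 1, adjusted p = 1). The authors had already removed cells far from the median in UMIs, genes or mitochondrial percent, so these values describe the cells left. After each of the 1193 FAPs with at least 2000 UMIs was thinned to 2000, the donor medians were 984 to 1021.5 genes in calves and 1035 to 1070 in adults. At equal depth the adult FAPs thus held more detected genes than the calf FAPs in each donor of one class against each of the other. The difference was 49.8 genes on average, at the smallest p that 5 against 5 donors allow (exact 2-sided permutation test, p = 0.00794). The thinned count was an alternative setting of the measure above, and its p was not adjusted.

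To ask which genes differed with age, raw UMIs were summed over the FAPs of each donor, giving 270458 to 2268755 UMIs per donor, and compared in edgeR. Levels below are CPM in a donor's FAPs after TMM scaling, log2 fold changes are calves over adults with their SE, and a gene passed at an adjusted p below 0.05 over all 6158 genes tested. Of these, 194 passed (3.15%), 93 higher in calves (1.51%) and 101 higher in adults (1.64%). A change above 2-fold was reached by 81 (1.32%), with 35 higher in calves (0.568%) and 46 in adults (0.747%). After TMM scaling, which centres most genes near 0, 3089 of the genes tested lay above 0 and the median log2 fold change was 0.00. The even split is thus set by the scaling. The TMM factors were 0.927 to 0.9925 in calves and 1.016 to 1.075 in adults. Without TMM factors the median of all genes moved to -0.11 and the split to 53 higher in calves and 186 in adults.

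The CPM of the 5 calves and the 5 adults did not overlap for 169 genes with calves above (2.74%) and for 160 with adults above (2.6%), and this held for 75 and 78 of the passing genes. The number of passing genes fell to 126, 112, 106, 119 and 113 when donor 1, 2, 3, 5 or 6 was left out, and 66 genes passed whichever donor was left out, 31 of them higher in calves. FAPs were the cell type with the highest level, among the 11 annotated types of the muscle library, for 19 of the 93 genes higher in calves (20.4%) and 13 of the 101 higher in adults (12.9%), against 6.45% of all genes tested. Passing genes were also more abundant in FAPs, with median levels of 100.4 CPM (higher in calves) and 68.65 CPM (higher in adults) against 49 over all genes tested. The part of abundance in these shares was not tested.

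**Figure D1:**
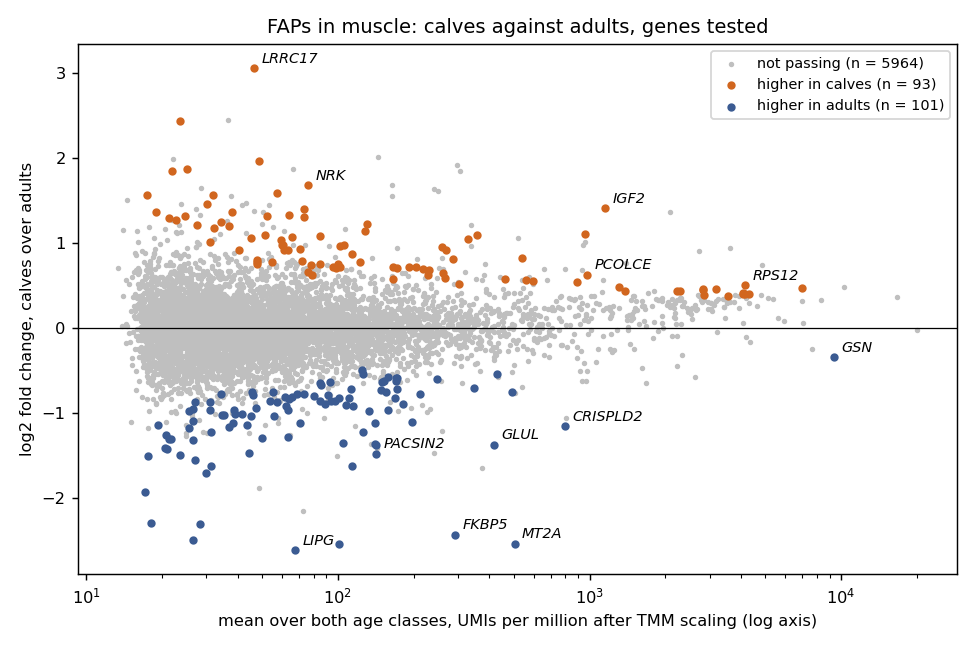
Log2 fold change of calves over adults (vertical axis) against mean level in CPM (horizontal log axis) for the 6158 genes tested in muscle FAPs, with the 93 passing genes higher in calves in orange, the 101 higher in adults in blue and the others in grey. IGF2 combined a high level with a large difference, and GSN, the passing gene with the highest level, changed little.

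Among the genes with the largest differences, 12 were higher in calves, and IGF2 was by far the most abundant of them. IGF2 encodes an insulin-like growth factor. Its level was 1696, 2113, 1302, 1717 and 1589 CPM in calf donors 2, 4, 5, 7 and 10. Adult donors 1, 3, 6, 8 and 9 held 512, 416, 541, 1060.45 and 618 CPM. The lowest calf lay above the highest adult, and the fold change was 1.41 ± 0.23 on the log2 scale (adjusted p = 0.0066). IGF2 was not particular to FAPs in level, since VECs of the same library held 2374 unscaled CPM against 1185 in FAPs, both summed over all donors.

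The widest difference was that of LRRC17, which encodes a secreted leucine-rich repeat protein. Calves held 65.2, 31.7, 77.7, 66.6 and 169 CPM, and adults 19.3, 3.59, 3.56, 13.9 and 14.7 CPM, a log2 fold change of 3.06 ± 0.56 (adjusted p = 0.019). It did not pass without donor 3 or donor 6, where its adjusted p rose to at most 0.061, nor without the filter (adjusted p = 0.052). At 2000 UMIs per cell, 3.06 to 21.0% of a calf's FAPs held a UMI of LRRC17 and 0.00 to 5.36% of an adult's. Of 830 VECs thinned alike, 0.241% did, with a median of 2779 UMIs per VEC and 6213 per FAP before thinning. Tenocytes and SMMCs held more of it than FAPs, at 98.7 and 90.7 against 60.7 unscaled CPM.

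NRK, a protein kinase, varied little among calves and more among adults. Its level was 103, 123, 115, 109 and 129 CPM in calves and 16.1, 53.8, 29.7, 46.2 and 35.3 CPM in adults (log2 fold change 1.68 ± 0.21, adjusted p = 0.0011). ADGRD1, an adhesion G protein-coupled receptor, reached 107 ± 17.96 CPM in calves and 39.5 ± 14.2 in adults (SD, n = 5 each; log2 fold change 1.41 ± 0.21, adjusted p = 0.0025). ALAD, an enzyme of haem synthesis, reached 78.0 ± 24.5 against 19.4 ± 3.32 CPM (log2 fold change 1.96 ± 0.28, adjusted p = 0.0016). ARHGAP20 reached 82.7 ± 21.5 against 32.1 ± 16.03 CPM (log2 fold change 1.59 ± 0.32, adjusted p = 0.016), and did not pass without donor 8, among female donors alone or with donor sums thinned (adjusted p = 0.051, 0.11 and 0.17).

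The other calf-high genes were less abundant. DDIT4L, an inhibitor of mTORC1 signalling, had 39.9 CPM in calves and 7.17 in adults, OVOS2, of the alpha-2-macroglobulin family of protease inhibitors, 38.7 and 11.4 CPM, and IMPA2, an inositol monophosphatase, 43.9 and 16.7 CPM. PGM5 and FILIP1, both proteins tied to the actin cytoskeleton, had 35.01 against 8.94 CPM and 48.8 against 15.1 CPM. SLC25A35, of the mitochondrial carrier family, had 26.8 against 8.06 CPM. These genes had log2 fold changes between 1.46 and 2.43. In the muscle library DDIT4L stood highest in cells annotated as myocytes (229 unscaled CPM against 22.9 in FAPs), and PGM5 and FILIP1 in SMMCs (1000 and 202 against 22.7 and 37.8). PGM5 passed without every donor that left it testable, and SLC25A35 did not pass without donor 2, 3, 8 or 9 (adjusted p at most 0.083). Both fell below the filter on low counts without donor 5 or donor 10. Among female donors alone PGM5, IMPA2 and SLC25A35 did not pass (adjusted p = 0.064, 0.078 and 0.11). OVOS2 has close relatives in its family, to which the authors' counting may have assigned part of its reads.

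**Figure D2:**
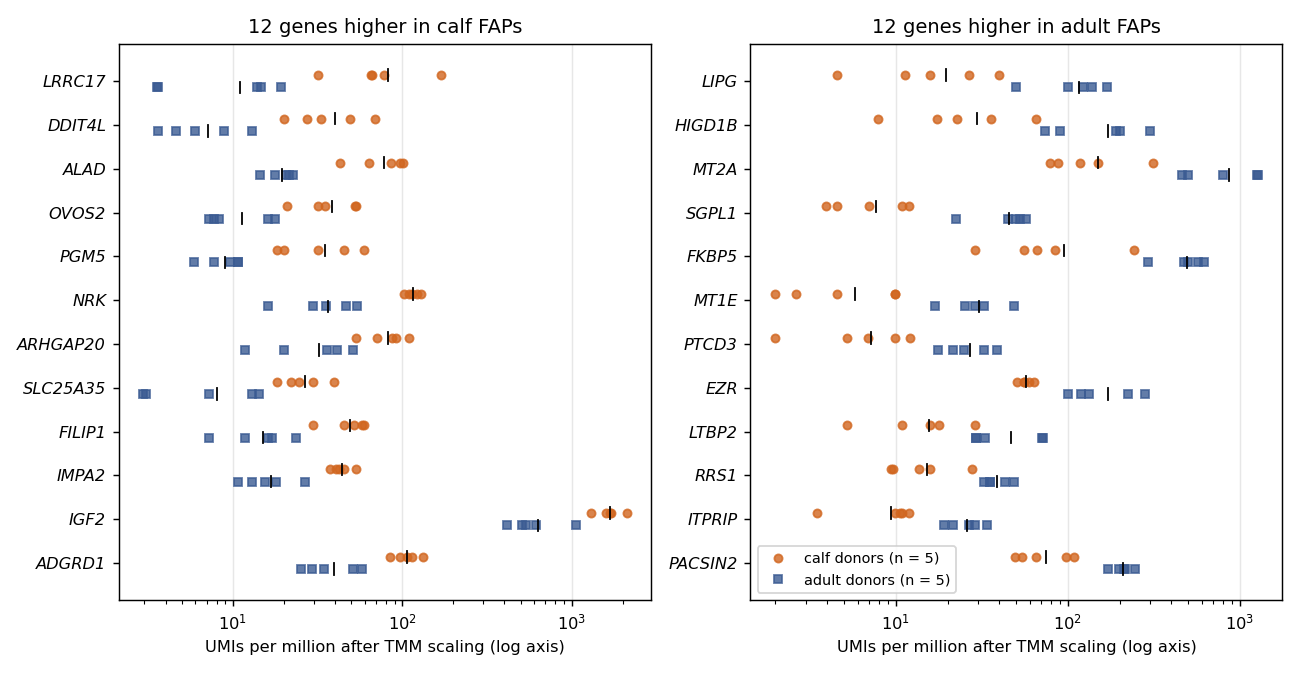
Levels in CPM (horizontal log axis) of the 12 genes with the largest difference in each direction, with 1 orange circle per calf, 1 blue square per adult and a black bar at the mean of each class. The age classes did not overlap for these 24 genes, which the rule that chose them required, and the spread was narrow for NRK in calves and wide for LRRC17.

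The 12 genes with the largest differences towards adults were led by LIPG, which encodes a lipase of phospholipids named for endothelium. It was highest in FAPs among the annotated types. Calves held 15.8, 39.6, 26.6, 4.54 and 11.3 CPM, and adults 99.8, 122, 168, 139 and 49.995 CPM (log2 fold change -2.61 ± 0.42, adjusted p = 0.0090). It did not pass among female donors alone (adjusted p = 0.11). At 2000 UMIs per cell it was found in 0.917 to 9.18% of a calf's FAPs and in 10.7 to 24.5% of an adult's. No UMI of it was found in 830 VECs thinned alike, which sets no limit on VECs that express it. Without thinning, VECs summed over donors held 0.978 unscaled CPM of LIPG against 53.3 in FAPs.

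Several adult-high genes are known targets of glucocorticoids or bind metals. FKBP5, a co-chaperone of the glucocorticoid receptor and a target of it, held 55.3, 242, 84.6, 66.6 and 28.8 CPM in calves and 473, 499, 620.4, 567 and 294 CPM in adults (log2 fold change -2.43 ± 0.52, adjusted p = 0.045). Calf donor 4 stood nearest to the adults. The call rested on most donors: FKBP5 did not pass without donor 1, 2, 3, 5, 6, 7, 8 or 9, with an adjusted p of at most 0.11, nor with sex as a covariate (adjusted p = 0.080), among female donors alone (0.20), without the filter (0.059) or with donor sums thinned (0.057). The metallothionein MT2A held 79.1, 313, 151, 87.8 and 117 CPM in calves and 802, 1277, 1256, 458 and 497 CPM in adults (log2 fold change -2.53 ± 0.47, adjusted p = 0.027). It did not pass without donor 1, 2, 3, 5, 6, 7 or 10 (adjusted p at most 0.075). MT1E had 5.78 CPM in calves and 30.4 in adults (log2 fold change -2.29 ± 0.40, adjusted p = 0.0056), and was too low to be tested without donor 6. Among female donors alone neither MT2A nor MT1E passed (adjusted p = 0.14 and 0.052). In the muscle library SCs held more of both than FAPs, at 2079 against 366 unscaled CPM for MT2A and 127 against 14.4 for MT1E. Tenocytes and lymphatic endothelial cells held MT2A at 3312 and 2333 unscaled CPM. The part of RNA from those cells in these differences was not tested. Metallothionein genes are near copies of each other, so the split of reads between MT1E and MT2A is uncertain.

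HIGD1B, a gene of mural cells in vessel walls, held 35.6, 7.92, 22.6, 65.1 and 17.4 CPM in calf FAPs and 90.1, 301, 73.5, 202 and 191 CPM in adult FAPs (log2 fold change -2.54 ± 0.55, adjusted p = 0.043). Its adjusted p was at most 0.11 without donor 1, 2, 3, 4, 5, 8, 9 or 10, and it passed without donor 6 or donor 7. It did not pass without the filter, among female donors alone or with donor sums thinned (adjusted p = 0.071, 0.15 and 0.066). In the same library SMMCs held it at 914 unscaled CPM. The 11 mural marker genes summed to 147 to 273 unscaled CPM in calf FAPs and 152 to 274 in adult FAPs, and the defining markers RGS5, MYH11 and CNN1 each lay at 0 in 2, 1 and 2 calves and in 4, 2 and 3 adults, with at most 13.2 unscaled CPM in any donor. KCNJ8, another mural marker, was above 0 in every donor, at 1.64 to 10.7 unscaled CPM in calves and 3.03 to 11.1 in adults. The part of mural RNA in the HIGD1B difference was not tested. HIGD1B was found in 1.23 to 9.17% of a calf's FAPs and 14.04 to 38.8% of an adult's at 2000 UMIs per cell, and in 0.964% of VECs.

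The remaining adult-high genes had varied roles. SGPL1, which breaks down sphingosine-1-phosphate, held 7.64 ± 3.60 CPM in calves and 45.5 ± 13.6 in adults (SD, n = 5 each; log2 fold change -2.49 ± 0.30, adjusted p = 0.0011). PACSIN2, a membrane-bending protein, held 74.9 ± 26.6 and 208 ± 27.4 CPM (log2 fold change -1.48 ± 0.20, adjusted p = 0.0011). EZR, which ties the cell membrane to actin, held 50.6 to 63.4 CPM in calves and 100.5 to 281 in adults (log2 fold change -1.62 ± 0.25, adjusted p = 0.0055). PTCD3 of the mitochondrial ribosome, RRS1 of ribosome assembly, ITPRIP, a partner of inositol trisphosphate receptors, and LTBP2 of elastic microfibrils had log2 fold changes between -1.92 and -1.50. LTBP2 passed only without donor 7 and ITPRIP did not pass without donor 8 (adjusted p at most 0.12 and 0.069). RRS1 and ITPRIP did not pass among female donors alone (adjusted p = 0.12 and 0.13).

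The gene lists below were chosen with earlier results of these data known, so their counts beside the shares of all genes are descriptions only. Of the IGF axis 2 of 10 tested members passed, both higher in calves, against 1.51% of all genes. The 10 members all had a log2 fold change above 0, with a median of 0.79 against 0.00 over all genes tested. Among female donors alone 4 passed and the median was 1.36, and without 1 donor 1 to 3 passed. With all donors the passing members were IGF2 and IGFALS, which stabilises IGFs in serum (31.3 against 11.3 CPM, log2 fold change 1.30 ± 0.34, adjusted p = 0.046). IGFALS did not pass without donor 1, 2, 3, 5, 8, 9 or 10 (adjusted p at most 0.11), nor in DESeq2 or without TMM factors (adjusted p = 0.067 and 0.056). The binding protein IGFBP3 had 377 against 124 CPM (adjusted p = 0.066), IGFBP5 488 against 124 CPM (adjusted p = 0.13), IGF1 itself 126 against 58.8 CPM (adjusted p = 0.27) and the clearance receptor IGF2R 230.0 against 149 CPM (adjusted p = 0.069), none of which passed. IGFBP6, the most abundant member, had 5821 and 5355 CPM (adjusted p = 0.83). Of 14 tested imprinted growth genes IGF2 alone passed, and the median was 0.45. The count became 3 without donor 4, among female donors alone or without the filter. It was 2 without donor 6, 8 or 10, in DESeq2 or with sex as a covariate.

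Genes for the collagens themselves did not pass, while some of the enzymes that process them did. The 14 tested interstitial collagens had a median log2 fold change of 0.27 (0.15 without donor 10 to 0.39 without donor 8), with 10 above 0. In edgeR 0 of these collagens passed, though 6 had an unadjusted p below 0.05, which 17.3% of all genes tested reached. DESeq2 called 2 of them, and edgeR called 4 without donor 4, COL1A2 and COL3A1 among them. With sex as a covariate or among female donors alone edgeR called 2, and COL1A2, at 6071 against 3620 CPM, went from an adjusted p of 0.12 to 0.0055 and 0.023. COL1A1 had 4773 ± 1499 CPM in calves and 2472 ± 994 in adults (SD, n = 5 each; log2 fold change 0.95 ± 0.32, adjusted p = 0.17), and COL3A1 11983 ± 4240 and 8550 ± 1498 CPM (0.49 ± 0.25, adjusted p = 0.37). Calf donor 4 was the calf with the lowest COL1A1, at 2484 CPM, and adult donors 6 and 8, both males, were the adults with the highest, at 3159 and 3887 CPM.

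Of 24 tested collagen processing genes, 3 were higher in calves and 1 in adults, against 1.51% and 1.64% of all genes, with a median of 0.30. PCOLCE, which enhances cleavage of the procollagen C-terminus, held 1020, 1204, 1216, 1191 and 1297 CPM in calves and 744, 800, 795, 923 and 568 CPM in adults (log2 fold change 0.63 ± 0.13, adjusted p = 0.012). No calf overlapped with an adult, and PCOLCE passed whichever donor was left out. The prolyl 4-hydroxylase subunits P4HA1 and P4HA2 held 239 against 143 and 367 against 206 CPM (log2 fold changes 0.72 ± 0.17 and 0.81 ± 0.19, adjusted p = 0.026 for each). Neither passed without donor 1, 2, 3 or 9, nor P4HA2 without donor 5 and P4HA1 without donor 8 (adjusted p at most 0.071 and 0.074). LOXL4, a collagen cross-linking enzyme, was lower in calves (16.9 against 34.1 CPM, log2 fold change -0.97 ± 0.25, adjusted p = 0.044), and passed with no donor left out but donor 7, and not in DESeq2 (adjusted p = 0.069).

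Of 19 tested elastic fibre genes, FBLN5 (550 against 370 CPM) and MFAP2 (668 against 452 CPM) were higher in calves and LTBP2 in adults, against 1.51% and 1.64% of all genes. The median was 0.17, and 0.08 without donor 5 to 0.24 without donor 8. FBLN5 lost its call without donor 2, 6, 7, 8 or 9 and MFAP2 without donor 1, 3, 5, 6, 7, 8, 9 or 10. Of 18 matricellular genes only TGFBI passed, higher in calves (214 against 128 CPM, adjusted p = 0.022), and of 11 metalloproteinases and inhibitors only MMP16 (80.3 against 42.02 CPM, adjusted p = 0.039), where 8 of the 11 lay above 0 and the median was 0.61. With donor sums or cells thinned that median was 0.32 and 0.29, with 5 of 8 tested genes above 0 in each. TGFBI did not pass without donor 1, 2, 3, 8 or 9, and MMP16 without donor 1, 3, 5, 6, 7 or 9 or with sex as a covariate (adjusted p = 0.059). Basement membrane genes (14 tested) and small leucine-rich proteoglycans (10 tested) had 0 passing members in edgeR (2 and 0 at an unadjusted p below 0.05, and 1 and 0 in DESeq2 or with sex as a covariate) and medians of 0.05 and 0.01. DCN, the most abundant of the latter, had 19997 and 20217 CPM.

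**Figure D3:**
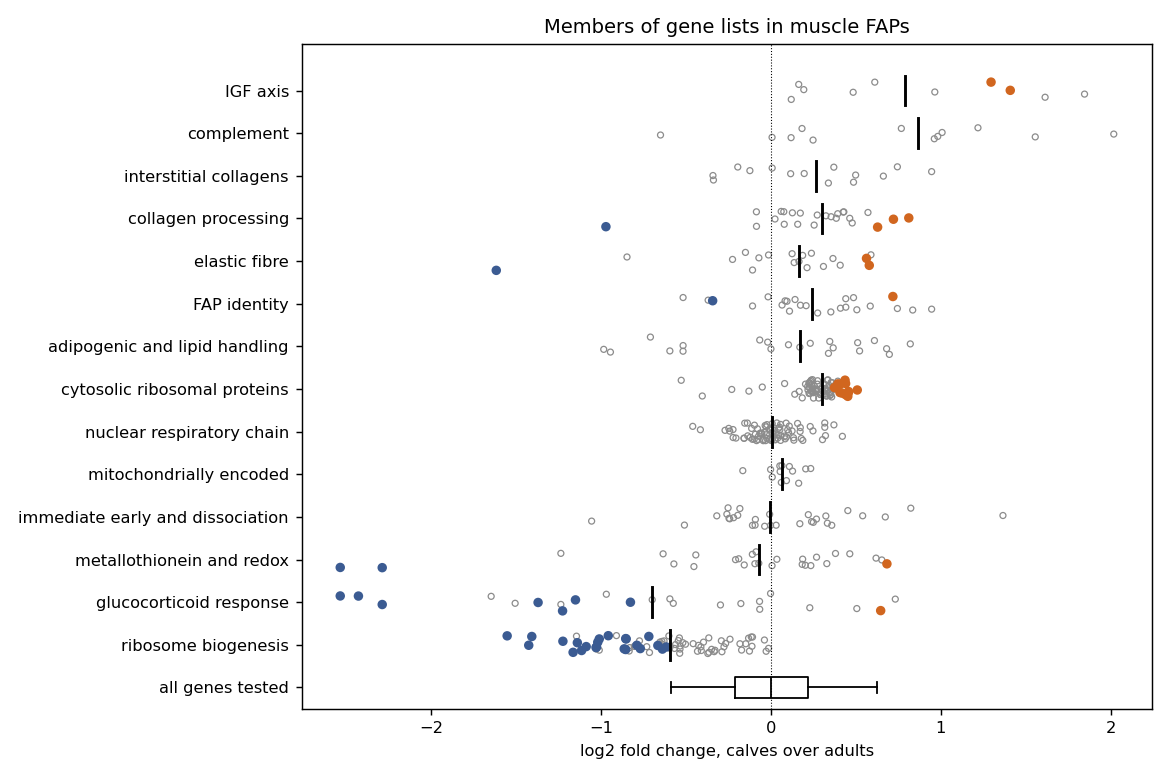
Log2 fold changes of calves over adults for the tested members of 14 gene lists in muscle FAPs, with passing members filled (orange higher in calves, blue higher in adults), the others open, and a black bar at the median; the box for all genes tested spans the quartiles, with whiskers at the 5th and 95th percentiles. The IGF axis and complement lie right of 0 and the ribosome biogenesis and glucocorticoid lists left of it, but no complement gene passed. The ribosome biogenesis list was written after the values had been seen.

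Passing members of the signalling lists are to be read against 3.15% of all genes. BMP4, a morphogen of the TGF-beta superfamily, held 223, 216, 230, 198 and 167 CPM in calves and 132, 129, 120, 128 and 118 CPM in adults (log2 fold change 0.72 ± 0.13, adjusted p = 0.0062). It was the only passing member of 25 TGF-beta and BMP genes, whose median was 0.18 (0.10 without donor 5 and 0.35 among female donors alone). VEGFC, the lymphatic growth factor, held 80.4 ± 17.7 and 40.6 ± 5.72 CPM (0.98 ± 0.20, adjusted p = 0.011), the only one to pass of 12 tested genes for factors that act on muscle and vessels. Both passed whichever donor was left out. VEGFC did not pass among female donors alone or with donor sums or cells thinned (adjusted p = 0.11, 0.28 and 0.28), nor BMP4 with cells thinned (adjusted p = 0.12). The cytokines IL18 (181 against 79.9 CPM, adjusted p = 0.021) and IL34 (39.5 against 15.5 CPM, adjusted p = 0.035) were the 2 of 13 chemokine and cytokine genes that passed. IL18 lost its call without donor 1, 2, 3, 6 or 8, and IL34 without donor 1, 2, 3, 4, 5, 6 or 9 or with sex as a covariate (adjusted p = 0.068). RARRES2, which encodes chemerin, was the 1 of 9 retinoid genes to pass (691 against 389 CPM, adjusted p = 0.032), and not without donor 1, 2, 3, 6, 9 or 10.

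Complement genes did not pass. The 12 tested had a median of 0.87, which fell to 0.46 without donor 4, and 11 lay above 0, but 0 passed in edgeR, with 4 at an unadjusted p below 0.05 (17.3% of all genes), and DESeq2 called 4. Without donor 4, 2 passed in edgeR. SERPING1, the inhibitor of C1, held 1753 ± 677 CPM in calves and 1029 ± 112 in adults (log2 fold change 0.77 ± 0.20, adjusted p = 0.060). It passed without donor 4, 7 or 10. Calf donor 4 stood apart, with 14224 unscaled CPM over the list against 6100 to 9185 in the other calves and 5223 to 7217 in adults, and with 719 CPM of CFB against 7.85 to 216 in the other calves.

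Of 24 tested FAP identity genes 2 passed, 1 in each direction, against 3.15% of all genes tested. Without donor 4, 3 passed higher in calves and 1 in adults. Without donor 1, 2, 3, 5, 6, 7 or 9 only 1 passed, higher in calves. PRRX1, a mesenchymal transcription factor, was higher in calves (118 against 72.4 CPM, log2 fold change 0.72 ± 0.15, adjusted p = 0.012), but not among female donors alone or with donor sums or cells thinned (adjusted p = 0.12, 0.21 and 0.18). GSN, an actin-severing protein, was lower, with 8308, 8262, 7582, 8159 and 9052 CPM in calves and 10292, 10771, 11330.0, 9845 and 10190.2 CPM in adults (log2 fold change -0.34 ± 0.08, adjusted p = 0.026). The GSN call was lost without donor 1, 2, 3, 5, 6, 7 or 9, with an adjusted p of at most 0.080, and among female donors alone (adjusted p = 0.099). The lists for adventitial and parenchymal FAPs (16 tested each), adipogenesis and lipid handling (21), Wnt ligands and modulators (13), senescence (12) and antigen presentation (12) held 0 passing members in edgeR, with 4, 8, 6, 3, 1 and 0 at an unadjusted p below 0.05, against 17.3% of all genes, of which DESeq2 called 1 parenchymal and 1 adipogenic gene. With sex as a covariate edgeR called 1 Wnt gene and the parenchymal gene SPARCL1, which was higher in adults (adjusted p = 0.0070, and 0.047 among female donors alone). Of 10 interferon-stimulated and 12 NF-kB genes only IRF1, on both lists, passed (50.003 against 23.5 CPM, adjusted p = 0.044), and not without donor 1, 2, 5, 6, 7, 8 or 10 or with sex as a covariate (adjusted p = 0.05045). Of 12 tested cell cycle genes only the cyclin CCND3 passed, lower in calves (76.1 against 139 CPM, adjusted p = 0.020, at most 0.060 without donor 1, 2, 5 or 6, where it did not pass); MKI67, TOP2A and the other mitotic genes were too low to be tested.

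Like the other lists, the glucocorticoid response list was chosen with earlier results of these data known. Its median was -0.70, with 4 of 23 tested members above 0. Of these 23, 7 passed higher in adults and 1 in calves, against 1.64% and 1.51% of all genes. Besides FKBP5, MT2A and MT1E these were GLUL, CRISPLD2, MAOA and PER2. GLUL, glutamine synthetase, held 168, 301, 291, 207 and 196 CPM in calves and 618, 671, 699, 606 and 418 CPM in adults (log2 fold change -1.37 ± 0.18, adjusted p = 0.0011). CRISPLD2, a secreted protein, held 497 ± 156 CPM in calves and 1102 ± 269 in adults (-1.15 ± 0.21, adjusted p = 0.0097), MAOA, a monoamine oxidase, 122 ± 29.6 and 215 ± 18.6 CPM (-0.83 ± 0.17, adjusted p = 0.013), and the clock gene PER2 17.7 and 44.8 CPM (-1.23 ± 0.27, adjusted p = 0.020). GLUL, CRISPLD2 and MAOA passed whichever donor was left out. GLUL also passed under the other settings tried, whereas CRISPLD2 and MAOA did not among female donors alone (adjusted p = 0.064 and 0.071), nor MAOA with cells thinned (adjusted p = 0.052). The receptor itself, NR3C1, was the member higher in calves (318 ± 22.4 against 204 ± 49.0 CPM, log2 fold change 0.65 ± 0.15, adjusted p = 0.029), and its call was lost without donor 1, 2, 6 or 9, without TMM factors, among female donors alone and in either thinning (adjusted p at most 0.14).

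The whole list summed to 2685, 4892, 3601, 2907 and 2404 unscaled CPM in the calves and to 5844, 7495, 7942, 6186 and 4673 in the adults. The age classes thus overlapped by 1 calf, donor 4, and 1 adult, donor 9. TSC22D3, another classical target, had 183 against 565 CPM and did not pass (adjusted p = 0.058), and DUSP1, SGK1, PDK4 and CEBPD had log2 fold changes of -0.00, 0.23, -0.18 and -0.06. Of 30 genes of the immediate early and dissociation response 0 passed in edgeR or DESeq2, with 2 at an unadjusted p below 0.05 (17.3% of all genes), and their median was -0.00. The 7 members called higher in adults became 4 without donor 3 or donor 6 and 5 to 9 without another donor, 2 among female donors alone, and 4 in either thinning.

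Of 80 tested cytosolic ribosomal protein genes, 12 passed, all higher in calves, against 1.51% of all genes tested. In 36 of them the calves lay above the adults without overlap, against 2.74% of all genes, 75 lay above 0, and the median was 0.30. RPS12 held 4655, 5213, 4891, 4804 and 4878 CPM in calves and 3429, 3111, 3429.5, 3949 and 3253 CPM in adults (log2 fold change 0.51 ± 0.09, adjusted p = 0.0060). RPS19, RPLP0 and RPL26 had log2 fold changes of 0.46, 0.45 and 0.44 (adjusted p = 0.019, 0.020 and 0.024). RPLP0 lost its call without donor 1 or 9, and RPL26 without donor 3, 5, 6 or 8. Among female donors alone RPS19 and RPL26 did not pass (adjusted p = 0.069 and 0.11). The 12 calls became 4, 4, 3, 3, 6, 7, 3 and 23 without donor 1, 2, 3, 5, 6, 7, 9 or 10, and 5 among female donors alone. The 5 genes at or below 0 were RPL7L1, RPL22L1, RPL26L1, RPS27L and RPS4Y1. Together the ribosomal protein genes took 182843 to 222838 unscaled CPM in calves and 161219 to 178795 in adults. Without TMM factors their median was 0.18, with 4 called higher in calves and 1 in adults. These genes have many near-identical copies, so single values are uncertain.

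Genes for the assembly of ribosomes in the nucleolus were also counted. Of 77 tested ribosome biogenesis genes, a list written after the values had been seen, 23 passed, all higher in adults (1.64% of all genes did), 0 lay above 0 and the median was -0.60. DDX21, an RNA helicase of the nucleolus, held 47.4, 85.2, 93.5, 74.1 and 77.6 CPM in calves and 174, 151, 241, 183 and 135 CPM in adults (log2 fold change -1.22 ± 0.18, adjusted p = 0.0025). NOP56, of the box C/D ribonucleoprotein, held 69.4 ± 7.59 and 125 ± 12.1 CPM (-0.85 ± 0.14, adjusted p = 0.0052), NOLC1, a nucleolar chaperone, 36.5 ± 5.10 and 75.3 ± 11.5 CPM (-1.03 ± 0.17, adjusted p = 0.0052), and UTP20, of the small subunit processome, 11.3 and 29.9 CPM (-1.41 ± 0.24, adjusted p = 0.0056). All 4 passed whichever donor was left out, but NOLC1 did not with thinned donor sums (adjusted p = 0.066) nor UTP20 among female donors alone (adjusted p = 0.11), and after thinning of cells neither was tested. The 23 calls became 14, 12 and 15 without donor 5, 6 or 8, 7 among female donors alone, and 5 and 3 after thinning of donor sums or of cells. The list summed to 3168 to 3513 unscaled CPM in calves and 4988 to 5594 in adults. Since members were put on this list with their values known, the counts describe it and are no evidence of its direction.

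No change passed among energy genes. Of 81 tested nuclear genes of the respiratory chain and 13 mitochondrially encoded genes 0 passed in edgeR or DESeq2, with 6 and 1 at an unadjusted p below 0.05 (17.3% of all genes), and the medians were 0.01 and 0.07. In the redox list of 27 genes, where 1.51% and 1.64% of all genes are the background for calves and adults, MGST3 was higher in calves (286 against 176 CPM, adjusted p = 0.038), and not without donor 1, 2, 3, 4, 6, 7, 9 or 10, while MT1E and MT2A were higher in adults. Among female donors alone the calls of LOXL4, FBLN5, MFAP2, CCND3, RARRES2, IRF1, IL18, IL34 and MGST3 were also lost (adjusted p between 0.070 and 0.41), and with cells thinned those of P4HA1, P4HA2, MFAP2, TGFBI, MMP16, RARRES2, IL18 and MGST3 (between 0.052 and 0.23). Without TMM factors P4HA1, FBLN5, MFAP2, MMP16, RARRES2, IRF1, MGST3 and RPL26 did not pass (between 0.051 and 0.087), nor with donor sums thinned P4HA1, FBLN5, MFAP2, MMP16, IRF1, MGST3 and RPL26 (between 0.052 and 0.14).

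Markers of other cells were looked for in the same FAP sums. Of 23 tested muscle fibre genes 0 passed, against 3.15% of all genes tested. But 22 lay above 0, against 3089 of all 6158 genes, and the median was 0.45 against 0.00. Calves lay above adults without overlap for 2 of them, against 2.74% of all genes. The list summed to 3155 to 3719 unscaled CPM in calves and 2419 to 3180 in adults, which touches each calf-high gene that myocytes also hold, such as DDIT4L and NRK. The part of fibre RNA in these results was not tested. Vascular endothelial markers summed to 46.8 to 83.8 unscaled CPM in calves and 42.4 to 163 in adults. EMCN, the 1 of 11 that was tested, had 13.6 CPM in calves and 23.1 in adults (log2 fold change -0.83 ± 0.29, adjusted p = 0.13). Every adult lay above every calf for EMCN, as for 2.6% of all genes tested. EZR, higher in adult FAPs, held 304 unscaled CPM in VECs against 94.8 in FAPs, and the part of endothelial RNA in its difference was not tested. Other passing genes also stood higher in another annotated type than in FAPs. In unscaled CPM, TGFBI held 621 in monocytes and macrophages against 169 in FAPs, and MGST3 587 in VECs against 224. PRRX1, RARRES2 and PACSIN2 held 287, 1162 and 315 in SMMCs against 99.3, 510 and 117 in FAPs. The part of RNA from those types was not tested either. Satellite cell, lymphatic, macrophage, glial and tenocyte markers summed to overlapping ranges in the classes. PTPRC lay at 0 in all 5 calves and 2 adults and reached 16.6 unscaled CPM in an adult. Lymphocyte markers summed to 0 to 1.78 unscaled CPM in calves and 0 to 26.7 in adults, and neutrophil and erythrocyte markers to at most 12.7 in any donor.

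**Figure D4:**
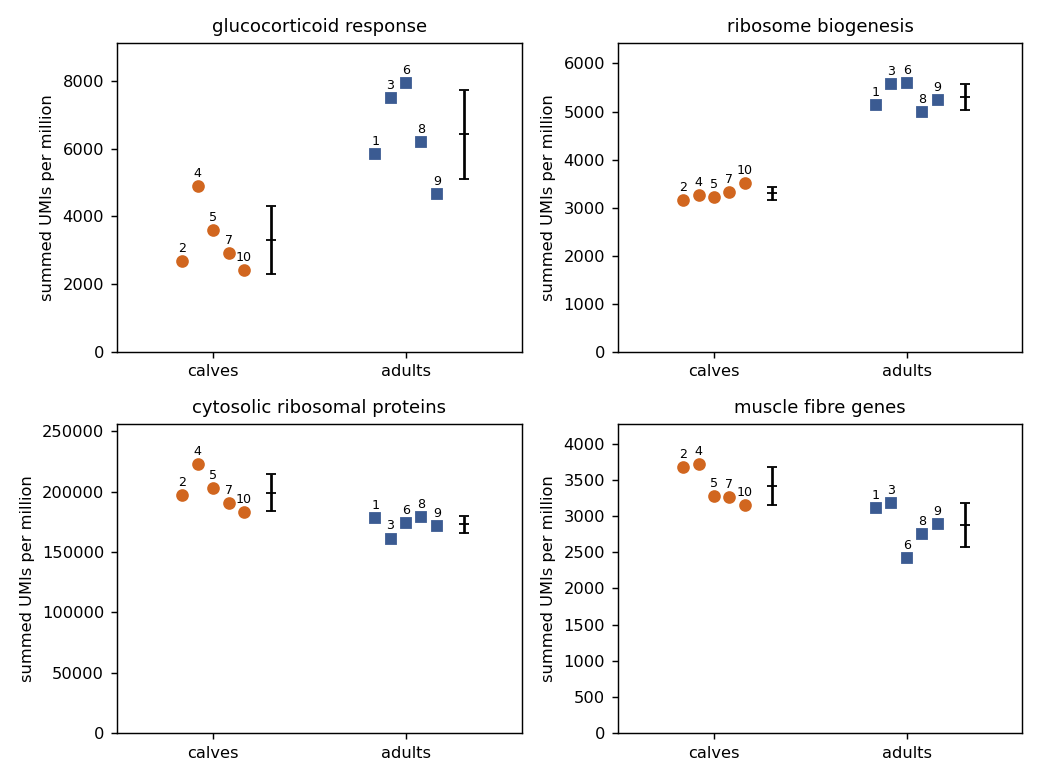
Summed level of 4 gene lists in the FAPs of each donor, in unscaled CPM (axes from 0), with orange circles for calves, blue squares for adults, donor numbers above the points, and the mean ± SD of 5 donors in black. The ribosome biogenesis and ribosomal protein sums do not overlap between the classes, but the biogenesis list was written after the values had been seen. In the glucocorticoid panel donor 4 stands highest among calves and donor 9 lowest among adults.

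Whether the age difference of FAPs departed from that of other cells of the same muscle was tested as a difference of differences with donor as a block. Against VECs 52 of 6516 genes passed (0.798%), against SMMCs 22 of 5349 (0.411%) and against SCs 0 of 5573 (0%), with 482 at an unadjusted p below 0.05 in edgeR. Without donor 3, 7, 9 or 10 the VEC count was 31, 33, 30 and 30. The SMMC count was 12, 11, 4, 5, 4 and 5 without donor 1, 2, 3, 5, 8 or 9, and the SC count 4, 2, 2, 1 and 38 without donor 1, 4, 6, 8 or 10. SCs and SMMCs had fewer UMIs per donor (97693 to 450674 and 78426 to 504628) than FAPs.

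The genes below are among the 24 named for large differences in FAPs, so their departures from other cells are not independent of that choice. IGF2 differed from VECs, where calves and adults held 2623 and 2616 CPM (log2 fold change 0.00 ± 0.14, difference 1.52 ± 0.29, adjusted p = 0.047). In SMMCs it had 971 against 384 CPM and in SCs 2524 against 1425 CPM, and neither difference from FAPs passed (adjusted p = 0.95 and 0.81). PGM5 differed from VECs, where it was lower in calves (difference 2.62 ± 0.37, adjusted p = 0.00036), and from SMMCs (2.09 ± 0.34, adjusted p = 0.0038). FILIP1 and EZR differed from SMMCs (1.83 ± 0.34 and -1.21 ± 0.25, adjusted p = 0.012 and 0.033), and HIGD1B from VECs (-2.74 ± 0.58, adjusted p = 0.018). EZR was lower in calves in VECs as well (215 against 547 CPM, log2 fold change -1.32 ± 0.18, adjusted p = 0.00043), as was PACSIN2 in VECs and SMMCs (-0.87 ± 0.19 and -0.92 ± 0.20, adjusted p = 0.016 and 0.028).

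FKBP5 was lower in calves by point estimate in each of these types, with 40.3 against 102 CPM in VECs, 54.9 against 170.4 in SMMCs and 119 against 407 in SCs, none of which passed (adjusted p = 0.45, 0.31 and 0.46). Its difference from FAPs did not pass either (adjusted p = 0.12, 0.38 and 0.53). Of all genes, 86 of 4522 passed between calves and adults in VECs (1.9%), 26 of 2246 in SMMCs (1.16%) and 4 of 4155 in SCs (0.0963%). The glucocorticoid list had medians of -0.37 in VECs, -0.17 in SMMCs and -0.54 in SCs, with 0 members passing in edgeR in any of them. The ribosomal protein genes had medians of 0.20, -0.02 and -0.17 and the ribosome biogenesis genes of -0.00, -0.23 and -0.30 in the same order, again with 0 passing. In the same order, differences from FAPs passed for 0.798, 0.411 and 0% of all genes. They passed for 1 of 22, 1 of 20 and 0 of 23 glucocorticoid genes and 0, 4 and 0 of 80 ribosomal protein genes. For biogenesis genes the counts were 3 of 74, 0 of 62 and 0 of 67. The biogenesis list was written with the muscle FAP values known, so its counts are not read against those shares.

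The age difference was then sought in the FAPs of the same animals after 72 h of culture. At passage 0, with 5 calves and 4 adults and 10321593 to 23061306 UMIs per donor, 0 of 11466 genes passed in edgeR (0%), with 575 at an unadjusted p below 0.05. DESeq2 called 12 of 16668 genes with a count, and edgeR called 1 without donor 10. The counts of each timepoint came from 1 deposited sample, so the step from muscle to culture and the library cannot be told apart. The comparison of ages lay within each library. For passage 0 the sample labelled run 1 was used, and the other run listed for that timepoint was not.

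Of the 194 genes that passed in muscle FAPs, 189 were tested at passage 0. The 90 higher in calves had a median log2 fold change of 0.81 in muscle and 0.04 at passage 0, and the 99 higher in adults -0.96 and -0.01. These genes were chosen on their muscle values, so the fall in the medians is not independent of that choice. The difference between muscle and passage 0 was tested in the 9 animals present at both, with donor as a block. It passed for 72 of 11634 genes (0.619%), and for 50 of the 194, a share that the choice of these genes on their muscle values raises. The count of 72 became 32, 33, 31, 39, 29, 44 and 42 without donor 1, 2, 6, 7, 8, 9 or 10.

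Among the genes with the largest differences, SGPL1 changed most clearly, with 10.8 and 10.0 CPM in calves and adults at passage 0 (difference -2.67 ± 0.36, adjusted p = 0.0012). PACSIN2 (84.4 and 90.7 CPM, difference -1.42 ± 0.22, adjusted p = 0.0032) and PTCD3 (39.1 and 38.7 CPM, -1.97 ± 0.35, adjusted p = 0.0071) followed, and on the calf-high side ALAD (18.8 and 17.6 CPM, 1.79 ± 0.32, adjusted p = 0.0073), FILIP1 (37.3 and 38.4 CPM, 1.46 ± 0.30, adjusted p = 0.019) and IMPA2 (12.2 and 12.4 CPM, 1.48 ± 0.31, adjusted p = 0.025). EZR, RRS1, HIGD1B, ARHGAP20 and DDIT4L also passed, so that 11 of these 24 genes differed between muscle and passage 0. In all 11 the age difference in muscle was the larger, but these 24 genes were chosen for large differences in muscle, so neither the count nor that direction is independent of the choice.

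IGF2 fell to 8.02 CPM in calves and 4.04 in adults at passage 0, with a log2 fold change of 0.99 ± 0.19 that did not pass (adjusted p = 0.72), and its age difference was not shown to differ from muscle (0.37 ± 0.21, adjusted p = 0.63). FKBP5 stood at 314 and 307 CPM (0.04 ± 0.16, adjusted p = 0.99; difference from muscle -2.64 ± 0.69, adjusted p = 0.27), MT2A at 13095 and 14362 CPM and MT1E at 1155 and 1045 CPM. Of the lists, the glucocorticoid genes had a median of -0.02 at passage 0, the ribosomal proteins of 0.06 and the ribosome biogenesis genes of -0.03, and the difference between muscle and passage 0 passed for 1 of 26, 1 of 82 and 7 of 104 members, against 0.619% of all genes. The last list was written with the muscle values known, so its count is not read against that share.

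**Figure D5:**
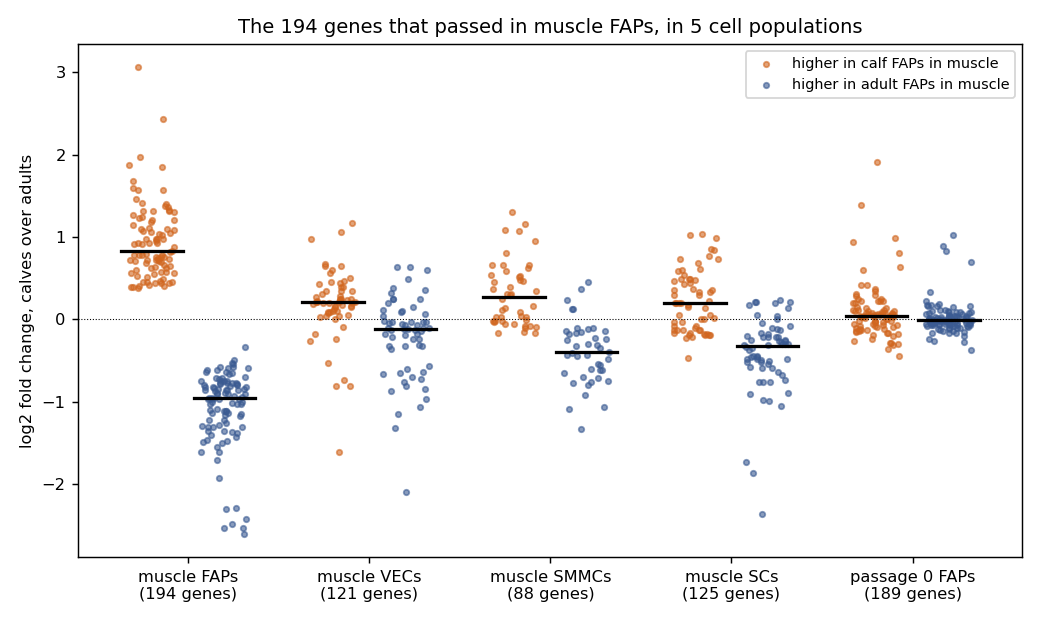
Log2 fold changes of calves over adults in 5 cell populations for the 194 genes that passed in muscle FAPs (number tested under each name), in orange those higher in calf FAPs and in blue those higher in adult FAPs, with black bars at the medians. The medians at passage 0 are 0.04 and -0.01, against 0.20 and -0.12 in VECs, 0.27 and -0.40 in SMMCs and 0.20 and -0.33 in SCs. The genes were chosen on their muscle FAP values, so medians nearer 0 elsewhere are not independent of that choice. The genes tested also differ between the populations.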

How the data were processed

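The authors mapped reads of the Chromium 3′ v3.1 library to genome build ARS-UCD1.2 with Cell Ranger 6.0.1, counted UMIs per gene and barcode, kept barcodes with the default filter and assigned them to animals with demuxlet, which cannot find doublets of 1 animal. No other doublet caller was run. The paper also removed cells that lay too many median absolute deviations from the median in genes, UMIs or mitochondrial percent. The deposited matrix of Timepoint 1 holds raw UMI counts of 21880 genes in 8980 barcodes, of which the deposited cell table annotates 4395, with 20977722 UMIs. The cell table also gave each cell's type, donor and, as deposited, its percent of mitochondrial UMIs, and 6 of its columns were not used. Kept cells of Timepoints 1 and 2 share 7 barcodes. Age class and sex came from the study's animal table. The gene table at hand is of another assembly, so no coordinates are given.

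UMIs were summed per donor and cell type (at least 10 cells) and fitted in edgeR 4.0.16 (R 4.3.3; quasi-likelihood F test, robust, TMM, filterByExpr, Benjamini-Hochberg over all genes tested). The SE was derived from the test, as the absolute log2 fold change divided by the square root of its F statistic. Differences between cell types or timepoints were interaction terms with donor as a block. Measures per donor were compared by exact 2-sided permutation of donors (SciPy 1.17.1). Alternatives were DESeq2 1.42.0, no filter, no TMM factors, sex as a covariate, female donors alone, pseudobulks thinned to the smallest total, cells thinned to 2000 UMIs, and each donor left out. On simulated counts for muscle FAPs (6158 genes), 78.3% of genes changed by 1 on the log2 scale, 96% by 1.5, 94% by 2 and 100% by 3 were recovered, and 0.139% of unchanged genes passed. These counts were drawn from dispersions that edgeR fitted to the same data and were tested in edgeR again. The rates therefore hold only for data that follow that model.

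Named genes were the 12 with the largest change in each direction among passing genes above 2-fold with a symbol, at least 20 CPM in the higher class and no overlap, and, in each list, up to 4 passing members per direction or the 2 most abundant where fewer than 2 passed. Other members given besides were chosen after their values were seen. The gene lists, members and rules were chosen with earlier results of these data known.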

Additional observations from a re-analysis of the deposited data

Results flagged for a closer look

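Single donors stood far from the other 4 of their class for 14 of 198 groups of 5 looked at, and chance alone gives about 1 in 20. Among genes that passed, FKBP5 reached 242 CPM in calf donor 4 against at most 84.6 in the other calves. ITPRIP fell to 3.49 CPM in calf donor 10, NOLC1 to 27.7 CPM in 1 calf, UTP20 to 23.5 CPM in 1 adult and MFAP2 to 312 CPM in 1 adult. Among genes that did not pass, the highest calf, taken gene by gene, stood apart for TIMP2 (1701 CPM), FSTL1 (2158), APOD (2848), IFI6 (519) and FBN1 (5187). The highest adult, again taken gene by gene, stood apart for RBP4 (903 CPM), NFKBIA (448) and HSPA1A (3214), and the lowest adult for ATP5F1E (525.5).

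Of the 24 genes named for size of change, those below departed in age difference from another cell population, by a test of the difference. They were chosen for large differences in muscle FAPs, so these departures are not independent of the choice. Against VECs the differences of log2 fold changes were 1.52 for IGF2, 2.62 for PGM5 and -2.74 for HIGD1B. Against SMMCs they were -1.21 for EZR, 1.83 for FILIP1 and 2.09 for PGM5. Against FAPs at passage 0 they were -2.67 for SGPL1, -1.42 for PACSIN2, 1.79 for ALAD, -1.69 for EZR, 1.48 for IMPA2, 1.46 for FILIP1, -1.97 for PTCD3, 2.47 for DDIT4L, -1.41 for RRS1, 1.804 for ARHGAP20 and -2.09 for HIGD1B.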

How the results depend on the processing

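The number of genes that passed between calf and adult FAPs in muscle was 194, and it moved to 334 without the filter on low counts, 87 among female donors alone, 84 with pseudobulks thinned to the smallest total and 61 with cells thinned to 2000 UMIs; the count above 2-fold, 81, moved to 152, 51, 41 and 34 under the same settings. Thinning also lowered the number of genes tested, to 3939 and 3051. No passing gene changed sign under any setting that fitted it. With 1 donor left out the counts lay between 106 and 215 and between 57 and 105. Of the 24 genes named for their size of change, 14 passed whichever donor was left out, and 12 under every other setting that tested them.

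The count of genes whose age difference in FAPs departed from VECs moved from 52 to 157 without the filter and 23 after thinning (30 to 65 without 1 donor), from SMMCs from 22 to 80 and 11 (4 to 32), and from SCs from 0 to 30 and 3 (0 to 38). For muscle against passage 0 it moved from 72 to 10 after thinning (29 to 82 without 1 donor). At passage 0 DESeq2, added after seeing the data, called 12 genes where edgeR called 0 (0 to 1 without 1 donor). The causes of these moves were not tested.

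The difference in FAP share, -0.552 percentage points, became 2.62 among female donors alone and -5.41 to 2.72 without 1 donor. The difference in genes per FAP, 0.8, became -49.8 at 2000 UMIs per cell and -14.8 among female donors alone, and -86.7 to 63.7 without 1 donor. UMIs per FAP differed by 150.4 to 795 and the mitochondrial percent by -0.245 to 0.0189 without 1 donor. No paired analysis was possible because calves and adults are different animals and the run numbers of the labels name no animal.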
